A study of Homo sapiens with 6 samples.

Results

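The genes of the pyruvate dehydrogenase complex and the tricarboxylic acid (TCA) cycle were followed in PrEC, a line of prostate epithelial cells that were normal before they were immortalized. The list named 30 genes, and a gene was kept where a probe set of the array was annotated with its symbol alone. This left 27 of 30, out of 18404 named genes, each with 1 probe set; PDP2, FH and GLUD1 were not analysed here. Of the 6 arrays, 3 came from cells with a short hairpin against PKCλ/ι (shPKCi) and 3 from cells with the hairpin named shNT, all grown in the same medium and collected 48 hours after plating under basal conditions. The labels do not say whether each hairpin line was a pool or a clone. Replicates are biological according to the series design, and with 3 arrays a group the precision of every value is limited. With a single hairpin name in each group, other differences between the hairpins or lines cannot be told apart from the knockdown. The p-values below do not cover them.

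Pyruvate dehydrogenase is the mitochondrial complex that turns pyruvate into acetyl-CoA and so joins glycolysis to the TCA cycle. Pyruvate dehydrogenase kinases switch the complex off by phosphorylating its first subunit, and dedicated phosphatases switch it back on. The cycle then oxidises acetyl-CoA through citrate, isocitrate, oxoglutarate, succinate, fumarate and malate, while carboxylases and aminotransferases feed or drain its intermediates. Healthy secretory prostate epithelium is known for exporting citrate rather than oxidising it.

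PRKCI, which encodes PKCλ/ι, was 2.06-fold lower in shPKCi (log2 fold change -1.05, SE 0.11, limma adjusted p = 0.000279). Its intensities were 800.3, 810.2 and 753.8 in the shPKCi arrays, against 1635, 1428 and 1843 in the shNT arrays. The array of shNT replicate 2 correlated with the others at 0.974 to 0.989, where the other 5 correlated among themselves at 0.982 to 0.996. That array was the lowest of the shNT arrays in 17 of the 27 TCA genes (63.0%) and in 36.7% of all genes, and shPKCi replicate 1 the lowest of its group in 15 (55.6%), against 38.0% of all genes. The 7 epithelial markers checked lay at or above the 95.9th percentile of signal. Among them EPCAM rose 1.52-fold and KRT14 fell 1.25-fold (limma adjusted p = 0.0128 and 0.0356), and 5 did not pass. EPCAM has 2 probe sets, and its rise is that of the one of higher mean. The other was not examined separately. Over all genes, 9.55% rose and 8.95% fell. Of 8 fibroblast and smooth muscle markers, the actin gene ACTA2 fell 4.43-fold and the collagen gene COL1A1 1.41-fold, 6 did not pass and none rose, where 8.95% of all genes fell. These 8 lay from the 3.4th (DCN) to the 69.7th percentile of signal (ACTA2). Their summed intensity was 434 to 446 in shPKCi and 723 to 791 in shNT, or 355 to 370.1 and 394 to 496 without ACTA2. The part of these markers in the results below was not tested. Of the 5 blood markers, at the 1.17th (PTPRC) to the 78.9th percentile (CD68), and the 3 endothelial ones, at the 17.9th to the 21.8th, none passed. Fewer cells of a type and less RNA per cell cannot be told apart in bulk samples.

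Transcripts of 3 of the 4 pyruvate dehydrogenase kinases fell in shPKCi, by 1.62-fold to 2.24-fold, and so did those of IDH2 and SUCLG2. The genes that rose were IDH3A, GOT1, IDH1 and DLAT, by 1.31-fold to 1.87-fold. In counts, 5 of the 27 measured genes fell, 4 rose and 18 did not pass (limma, Benjamini-Hochberg over all 18404 genes, threshold 0.05). The 9 called genes make 33.3% of those measured, where 18.5% of all genes were called in either direction. By direction, 9.55% of all genes (1758) were higher and 8.95% (1648) lower; with each array centred on its median these were 2170 and 1321, while the TCA genes still divided into 4 and 5. The median log2 fold change was 0.04 over the 27 genes and -0.02 over all genes, so that the called genes lay on both sides of a list whose middle barely moved. The groups did not overlap in 14 of the 27 genes (51.9%), against 35.7% of all genes.

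**Figure D1:**
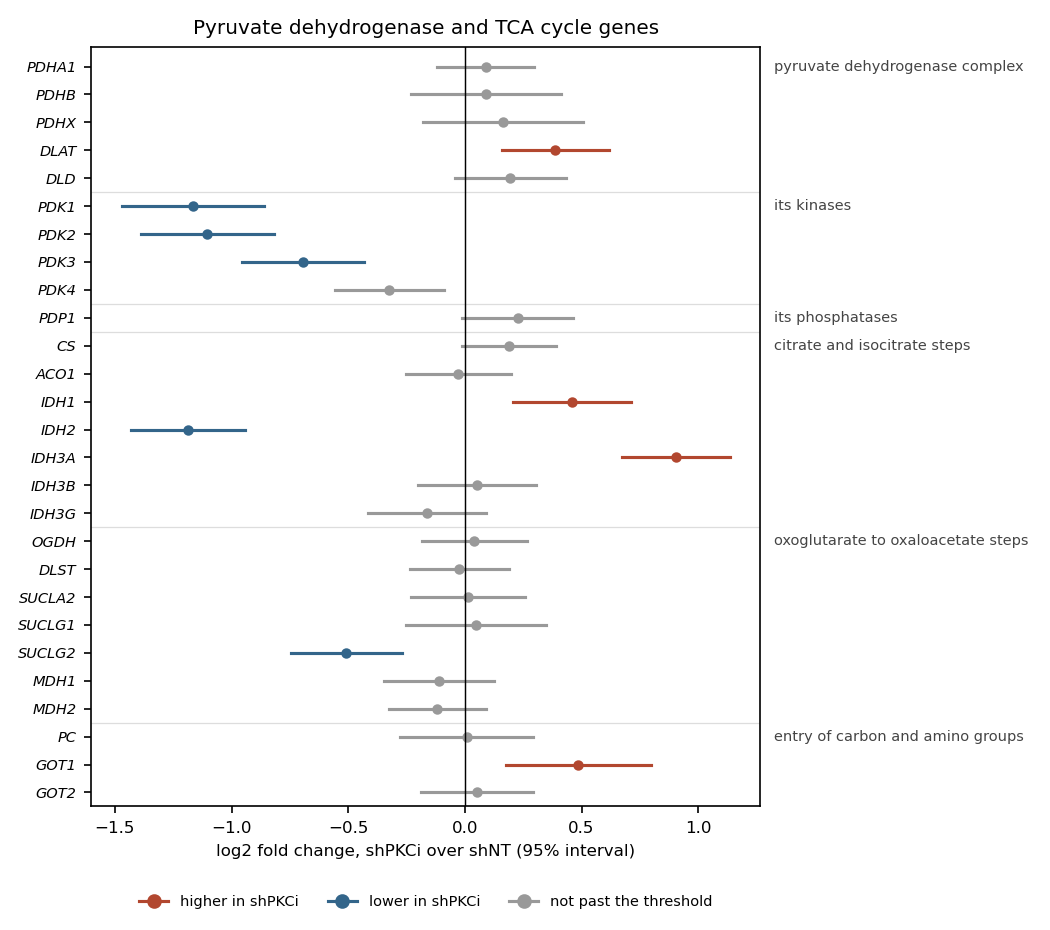
Log2 fold change of each of the 27 measured genes (horizontal axis, shPKCi over shNT, dot) with its 95% interval (line), ordered by role. PDK1, PDK2, PDK3, IDH2 and SUCLG2 lie below 0 and IDH3A, GOT1, IDH1 and DLAT above it, while the other 18 (grey) did not pass the threshold.

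Promoter windows of the 4 genes with the largest changes among those called are shown with the short motifs found in them that transcription factors of metabolic genes are known to read. RefSeq windows of 250 bases before a gene's start (GRCh38.p14) were searched on both strands for ACGTG and GCGTG, the core letters bound by hypoxia-inducible factors, and for CACGTG, the E-box, which contains ACGTG. Capitals mark each match, and each sequence is the strand of its gene, 5′ to 3′.
IDH2, chr15:90100622-90100871, minus strand: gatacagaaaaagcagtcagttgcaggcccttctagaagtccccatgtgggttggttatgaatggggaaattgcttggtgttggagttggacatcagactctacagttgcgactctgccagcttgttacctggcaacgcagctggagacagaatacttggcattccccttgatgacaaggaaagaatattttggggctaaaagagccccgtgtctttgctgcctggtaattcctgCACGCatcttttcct
PDK1, chr2:172555840-172556089, plus strand: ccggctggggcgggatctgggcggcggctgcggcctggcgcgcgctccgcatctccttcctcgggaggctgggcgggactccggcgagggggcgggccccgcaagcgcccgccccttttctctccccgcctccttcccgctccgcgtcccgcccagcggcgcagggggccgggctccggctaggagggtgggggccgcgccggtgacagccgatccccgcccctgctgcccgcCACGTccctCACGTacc
PDK2, chr17:50095101-50095350, plus strand: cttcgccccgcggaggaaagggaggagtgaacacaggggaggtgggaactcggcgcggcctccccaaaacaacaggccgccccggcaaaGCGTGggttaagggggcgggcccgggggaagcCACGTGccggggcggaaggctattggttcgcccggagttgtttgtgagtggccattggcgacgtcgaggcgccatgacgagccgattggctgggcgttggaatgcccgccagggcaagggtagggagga
IDH3A, chr15:78149112-78149361, plus strand: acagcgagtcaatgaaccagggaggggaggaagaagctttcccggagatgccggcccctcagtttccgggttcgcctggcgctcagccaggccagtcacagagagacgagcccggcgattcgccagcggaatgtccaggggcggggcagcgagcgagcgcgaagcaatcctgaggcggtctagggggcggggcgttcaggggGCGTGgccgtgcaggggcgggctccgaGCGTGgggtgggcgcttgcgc

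The PDK1 window holds ACGTG on the opposite strand 2 times, beginning 17 and 8 bases before the start, and the PDK2 window holds GCGTG 161 bases and CACGTG 129 bases before it. IDH3A, which rose, has GCGTG 48 and 21 bases before its start. IDH2, which fell, has GCGTG on the opposite strand 15 bases before the start that its 1 window is set by. Whether IDH2 transcripts also start elsewhere, or mainly so, was not examined, and no other IDH2 promoter was searched. PDK1 has 2 RefSeq windows and PDK2 has 3, and the first one with a match is shown; the others held none of the motifs. Over all 35116 windows, 18.5% hold ACGTG, 32.2% GCGTG and 6.34% CACGTG. Of the 34 windows of the measured genes, which cover 25 of the 27, 10 hold ACGTG (29.4%), 16 GCGTG (47.1%) and 2 CACGTG (5.88%). ACGTG or GCGTG stood in 55.9% of the measured genes' windows and in 43.2% of all windows. Counted by gene, 18 of the 25 had a match in at least 1 window, but the share by gene over all genes was not computed. A match describes the letters and not a site in use.

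Of the pyruvate dehydrogenase kinases, PDK1, PDK2 and PDK3 fell in shPKCi and PDK4 did not pass. PDK1, a kinase known as a target of hypoxia-inducible factor, had intensities of 258, 302 and 299 in shPKCi, against 692, 526 and 722 in shNT. All shPKCi arrays lay below all shNT arrays, and shNT replicate 2 was the one nearest to them. PDK1 averaged 8.16 ± 0.13 log2 units in shPKCi and 9.32 ± 0.25 in shNT (SD, n = 3 each), a 2.24-fold fall (log2 fold change -1.17, SE 0.14, limma adjusted p = 0.000414). Without shNT replicate 2 its log2 fold change was -1.31.

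PDK2, the kinase isoform known for its broad tissue expression, had 79.8, 99.98 and 101.9 in shPKCi and 198, 224 and 182 in shNT. The lowest of the shNT arrays was well above the highest shPKCi array. The fall was 2.15-fold (log2 fold change -1.10, SE 0.13, limma adjusted p = 0.000385). PDK3 had 74.8, 94.5 and 95.4 in shPKCi and 143, 136 and 146 in shNT, with shPKCi replicate 1 the lowest of its group, as it was for PDK1 and PDK2. PDK3 was 1.62-fold lower (log2 fold change -0.69, SE 0.12, limma adjusted p = 0.00292).

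PDK4, the isoform known to respond to fasting and fatty acids, was dim, at the 21.6th percentile of signal. Its intensities of 20.9, 18.9 and 21.3 in shPKCi lay below those of 26.0, 27.4 and 23.2 in shNT. The log2 fold change of -0.32 (95% interval -0.56 to -0.09) did not pass (limma adjusted p = 0.0597). It passed in 1 of 13 alternative settings, with arrays weighted by their quality (limma adjusted p = 0.0255). In the others the limma adjusted p ran up to 0.227. Signal at this level cannot be told from background here, and array signal of dim probe sets understates folds. Of the 4 kinases, 3 therefore fell, where 8.95% of all genes fell. In all 4, the dim PDK4 included, the groups did not overlap, as was the case in 35.7% of all genes.

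The phosphatase PDP1, which removes the kinases' phosphate groups, did not pass. It had 833, 877 and 989 in shPKCi and 754, 830.1 and 722 in shNT, so that the lowest shPKCi array was just above the highest shNT array. Its log2 fold change was 0.23 (95% interval -0.01 to 0.46, limma adjusted p = 0.194). Set against each other within each array, the log2 ratio of PDK1 to PDP1 was 1.39 lower in shPKCi (difference -1.39), and the groups did not overlap. A two-sided exact permutation test gave p = 0.1, the smallest that 3 arrays against 3 allow, and 0.125 adjusted over the 5 ratios compared; this design cannot reach 0.05.

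**Figure D2:**
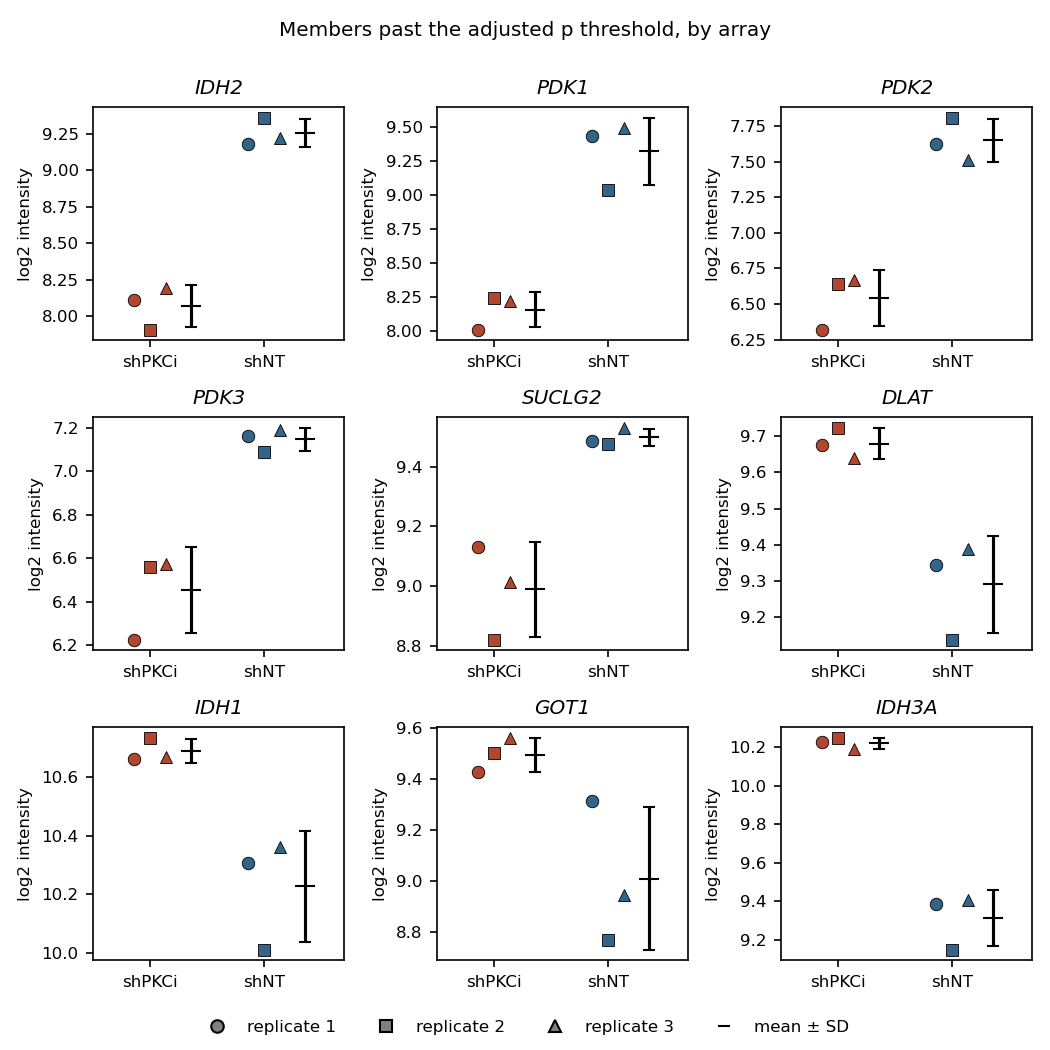
Log2 intensity (vertical axis, a separate scale in each panel that does not start at 0) of the 9 called genes in the 3 shPKCi and the 3 shNT arrays, with the mean and SD of each group. No panel shows overlap, and shNT replicate 2 (square) is the lowest shNT array for PDK1, PDK3, SUCLG2, DLAT, IDH1, GOT1 and IDH3A.

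Among the subunits of the complex itself, DLAT was the 1 of 5 that passed (20%, where 18.5% of all genes were called). DLAT, the acetyltransferase core that carries lipoic acid, had 818, 845 and 797 in shPKCi and 651, 564 and 671 in shNT. Every shPKCi array was above every shNT array, with shNT replicate 2 the lowest. DLAT was 1.31-fold higher (log2 fold change 0.39, SE 0.10, limma adjusted p = 0.0262). Its adjusted p was 0.0304 without shNT replicate 2, but 0.0856, 0.109 and 0.0641 without shPKCi replicates 1, 2 and 3 and 0.0519 without shNT replicate 1.

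The other subunits gave log2 fold changes from 0.09 to 0.19, with adjusted p between 0.264 and 0.745. They were PDHA1 and PDHB, the chains of the decarboxylase that the kinases act on, PDHX, which holds the dehydrogenase in place, and DLD, the dehydrogenase shared with the oxoglutarate complex. Their 95% intervals ran from -0.23 to 0.50, and those of PDHB, PDHX and DLD include the value of DLAT. PDHX had 908, 956 and 916 in shPKCi, against 921, 636 and 967 in shNT, where replicate 2 alone was low. Without that array the log2 fold changes of PDHX and PDHB were -0.03 and -0.06.

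Among the genes of the citrate and isocitrate steps, IDH2 fell, IDH3A and IDH1 rose, and IDH3B, IDH3G, ACO1 and CS did not pass. IDH2, the mitochondrial enzyme that makes NADPH, had the largest absolute change of the 27 genes. It had 276, 239.8 and 292 in shPKCi and 581, 658 and 596 in shNT, with a wide gap between the groups. Its mean was 8.07 ± 0.15 log2 units in shPKCi and 9.25 ± 0.09 in shNT (SD, n = 3 each), a 2.27-fold fall (log2 fold change -1.19, SE 0.11, limma adjusted p = 0.000107).

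IDH3A, the catalytic subunit of the NAD-dependent enzyme of the cycle, had 1196, 1215 and 1167 in shPKCi and 669.97, 568 and 679.6 in shNT. The shPKCi arrays lay close together and far above the shNT arrays. It was 1.87-fold higher (log2 fold change 0.90, SE 0.10, limma adjusted p = 0.00037), with means of 10.22 ± 0.03 log2 units in shPKCi and 9.32 ± 0.14 in shNT (SD, n = 3 each). IDH3B and IDH3G encode the other subunits of the same enzyme, and neither passed. Their log2 fold changes were 0.05 (95% interval -0.20 to 0.30) and -0.16 (-0.42 to 0.09), and both intervals end below the lower bound for IDH3A of 0.67.

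IDH1, the cytosolic and peroxisomal counterpart of IDH2, had 1619.65, 1702 and 1625 in shPKCi and 1267, 1032 and 1317 in shNT. The groups were separate, and shNT replicate 2 was again the lowest array. IDH1 was 1.38-fold higher (log2 fold change 0.46, SE 0.11, limma adjusted p = 0.0198). Its adjusted p was 0.0619, 0.0831 and 0.0569 without shPKCi replicates 1, 2 and 3, and 0.0185 without shNT replicate 2.

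The within-array log2 ratio of IDH1 to IDH2 was 1.64 higher in shPKCi, and the groups were 1.33 apart at their nearest arrays. The two-sided exact permutation test gave the smallest possible p = 0.1 (0.125 adjusted over the 5 ratios). CS, citrate synthase, which opens the cycle, had a log2 fold change of 0.19 (95% interval -0.01 to 0.39, limma adjusted p = 0.2), with shPKCi arrays of 757, 794 and 800.3 all above the shNT arrays of 698, 661 and 703. ACO1, the cytosolic aconitase that doubles as an iron sensor, had -0.03 (95% interval -0.25 to 0.20).

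From oxoglutarate to oxaloacetate, SUCLG2 was the 1 of 7 measured genes that passed (14.3%, where 18.5% of all genes were called). SUCLG2, the chain that makes succinyl-CoA ligase form GTP, had 561, 452 and 517 in shPKCi and 717, 712 and 739.6 in shNT. The shNT arrays lay close together and above all shPKCi arrays. It was 1.42-fold lower (log2 fold change -0.51, SE 0.11, limma adjusted p = 0.00898). Without shPKCi replicate 2, the lowest array, its adjusted p was 0.0503.

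SUCLA2, the ATP-forming alternative to SUCLG2, had 1824, 1912 and 1767 in shPKCi and 1935, 1589 and 1947 in shNT, so that the groups overlapped. Its log2 fold change was 0.01 (95% interval -0.23 to 0.26), and that of SUCLG1, the chain shared by both forms, was 0.05 (-0.25 to 0.35). The log2 ratio of SUCLA2 to SUCLG2 was 0.52 higher in shPKCi, with groups that did not overlap and the smallest possible exact permutation p = 0.1. OGDH and DLST, subunits of the oxoglutarate complex, had log2 fold changes of 0.04 and -0.02, with 95% intervals of -0.18 to 0.26 and -0.23 to 0.19.

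MDH1 and MDH2, the cytosolic and mitochondrial malate dehydrogenases, had log2 fold changes of -0.11 and -0.12 (limma adjusted p = 0.555 and 0.46). MDH2 had 1519.8, 1527 and 1575 in shPKCi, just below the 1775, 1632 and 1612 of shNT. The ratio of MDH1 to MDH2 differed by 0.01 between the groups, with overlap (exact permutation p = 0.9).

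Of the genes that bring carbon or amino groups into the cycle, GOT1 passed and GOT2 and PC did not. GOT1, the cytosolic aspartate aminotransferase of the malate-aspartate shuttle, had 688, 724 and 754 in shPKCi and 636, 435 and 493 in shNT. The shNT arrays were spread widely, and shNT replicate 1 came close to the shPKCi arrays. GOT1 was 1.40-fold higher (log2 fold change 0.49, SE 0.14, limma adjusted p = 0.0365). It passed in 1 of the 6 fits that left out an array, the one without shNT replicate 1 (adjusted p = 0.00874). The others were 0.0819, 0.107 and 0.115 without shPKCi replicates 1, 2 and 3, and 0.0653 and 0.106 without shNT replicates 2 and 3, with a log2 fold change of 0.37 without shNT replicate 2.

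GOT2, the mitochondrial aminotransferase, had 925, 1044 and 1107 in shPKCi and 939, 1064 and 962 in shNT, and the groups overlapped. Its log2 fold change was 0.05 (95% interval -0.19 to 0.29). The log2 ratio of GOT1 to GOT2 was 0.44 higher in shPKCi (exact permutation p = 0.1), but the nearest arrays of the groups were only 0.0076 apart. PC, pyruvate carboxylase, which makes oxaloacetate from pyruvate, was dim at the 33.5th percentile of signal. Its intensities of 44.7, 36.3 and 34.6 in shPKCi and 37.5, 34.8 and 42.4 in shNT overlapped (log2 fold change 0.01, 95% interval -0.28 to 0.29).

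**Figure D3:**
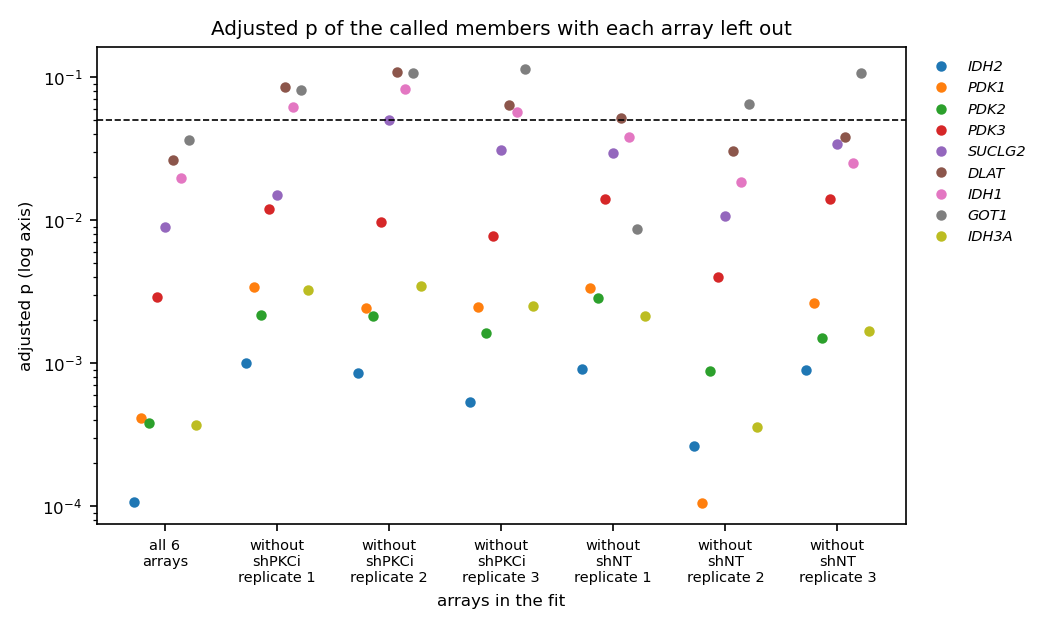
Adjusted p (vertical log axis) of the 9 called genes with all 6 arrays and with each array left out in turn (horizontal axis), with the threshold of 0.05 dashed. IDH2, PDK1, PDK2, PDK3 and IDH3A stayed below the line in all 6 fits, whereas SUCLG2, IDH1, DLAT and GOT1 crossed it in 1, 3, 4 and 5 fits.

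The 5 genes with the largest changes kept their calls whichever array was left out. In the 6 fits without 1 array, the adjusted p of IDH2 reached at most 0.00101, that of PDK2 0.00284, of PDK1 0.0034, of IDH3A 0.00345 and of PDK3 0.0141. The number of TCA genes that fell was 4 without shPKCi replicate 2 and 5 in the other fits. The number that rose was 1 without any one of the shPKCi arrays and 3 without any one of the shNT arrays. Among the genes that rose, IDH3A passed in each of the 6.

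Neighbouring genes of the pathway, which supply the complex, its lipoic acid cofactor, succinate dehydrogenase and the shuttles, were mostly higher where they passed. Of 36 such genes listed, 29 were measured, 6 were higher, 2 lower and 21 did not pass, or 27.6% called against 18.5% of all genes. Their median log2 fold change was 0.14. ME1, the cytosolic malic enzyme that makes NADPH, had 679.8, 689.97 and 645 in shPKCi and 394, 278 and 429 in shNT, and shNT replicate 2 was the lowest array. ME1 was 1.86-fold higher (log2 fold change 0.90, SE 0.15, limma adjusted p = 0.00321), and without shNT replicate 2 its log2 fold change was 0.71.

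SLC25A13, the mitochondrial carrier that exchanges aspartate for glutamate, had 697, 718 and 732 in shPKCi and 418, 417 and 413 in shNT. The spread within each group was small beside the gap, and the rise was 1.72-fold (log2 fold change 0.78, SE 0.09, limma adjusted p = 0.000352). ACLY, which cleaves exported citrate into acetyl-CoA, had 1398, 1465 and 1384 in shPKCi and 842, 922 and 872 in shNT, again with no overlap. ACLY was 1.61-fold higher (log2 fold change 0.69, SE 0.09, limma adjusted p = 0.000874).

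LIAS, the synthase of the lipoic acid that DLAT and DLST carry, had 234, 263 and 268 in shPKCi and 176, 138 and 181 in shNT. Its groups were separate, and the log2 fold change was 0.64 (limma adjusted p = 0.00656). MPC1, a subunit of the mitochondrial pyruvate carrier, had 285, 271 and 256 in shPKCi and 205, 192 and 208 in shNT, a log2 fold change of 0.42 (adjusted p = 0.0131). Its partner subunit MPC2 had 0.18 (95% interval -0.07 to 0.43). The MPC1 call was lost without shPKCi replicate 1 or 2 (adjusted p = 0.065 and 0.0588).

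SDHAF2, an assembly factor of succinate dehydrogenase, had 299, 328 and 368 in shPKCi and 269, 210.0 and 238 in shNT. Its log2 fold change was 0.48 (limma adjusted p = 0.025), and the call was lost without shPKCi replicate 2 or 3 or shNT replicate 3 (adjusted p = 0.0801, 0.0978 and 0.067). The probe sets used for the enzyme's own subunits SDHA, SDHC and SDHD gave log2 fold changes of -0.31, -0.27 and 0.24. None of them passed (limma adjusted p = 0.0628, 0.116 and 0.154), and SDHB was not analysed. SDHC and SDHD have 2 probe sets each, and the one of higher mean was used. The other gave 0.03 for SDHC and 0.29 for SDHD. Which of them reads the gene's own transcripts was not examined, so the SDHC value of -0.27 is uncertain. DHTKD1, a relative of OGDH in lysine breakdown, had 243, 281 and 310.2 in shPKCi and 337, 387 and 359 in shNT. ADHFE1, listed with the hydroxyglutarate dehydrogenases, had 17.3, 15.3 and 15.8 in shPKCi and 18.8, 23.9 and 20.9 in shNT. Its signal was at the 17.5th percentile.

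DHTKD1 and ADHFE1 fell by 0.38 and 0.39 on the log2 scale, just past the threshold (limma adjusted p = 0.0481 and 0.0408). The call of DHTKD1 was kept in 1 of the 6 fits without an array, the one without shPKCi replicate 3, and that of ADHFE1 in the one without shNT replicate 1; otherwise their adjusted p ran up to 0.183 and 0.152. The lactate dehydrogenase genes LDHA and LDHB, which compete for pyruvate, had log2 fold changes of -0.15 and 0.20 (95% intervals -0.40 to 0.09 and -0.05 to 0.45) and did not pass.

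**Figure D4:**
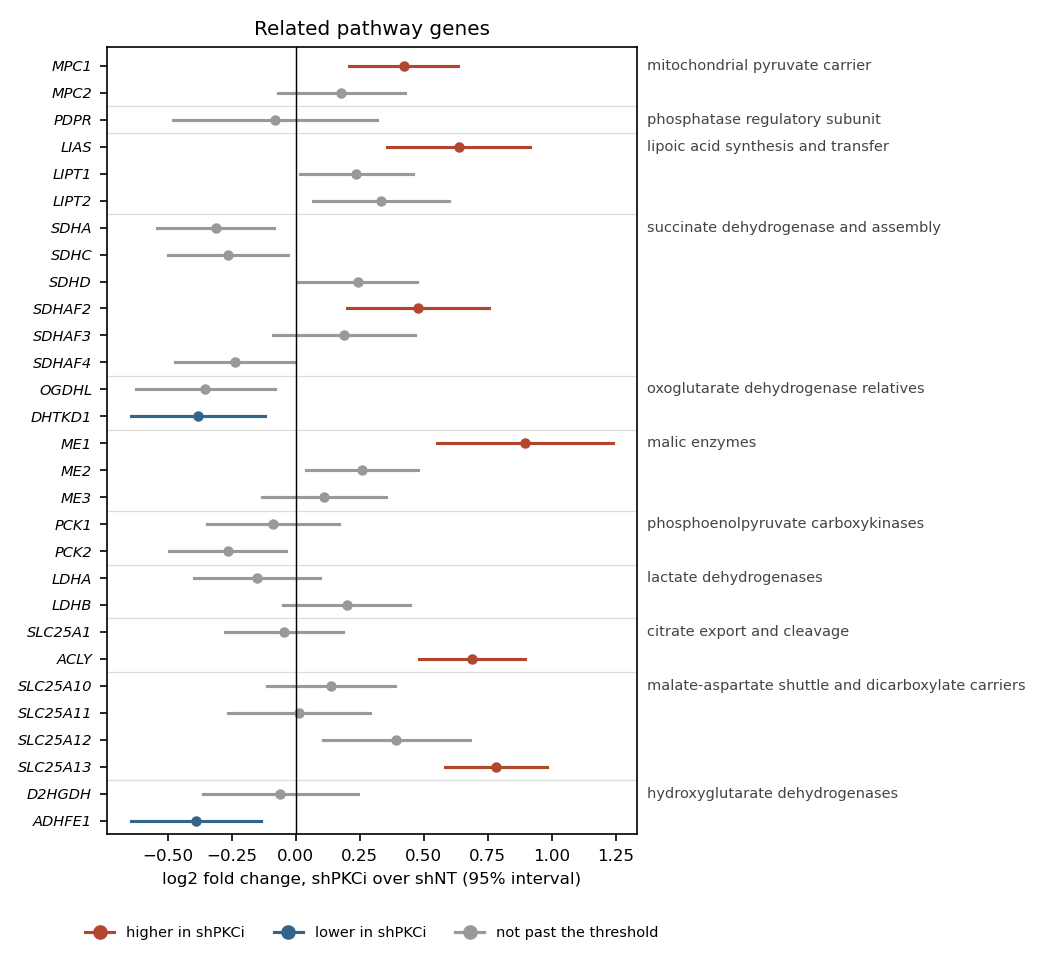
Log2 fold change of each of the 29 measured neighbouring genes (horizontal axis, shPKCi over shNT, dot) with its 95% interval (line), ordered by role. ME1, SLC25A13, ACLY, LIAS, SDHAF2 and MPC1 lie above 0, DHTKD1 and ADHFE1 below it, and the other 21 (grey) did not pass the threshold.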

How the data were processed

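The authors deposited probe set intensities on a linear scale for 32321 probe sets on 6 arrays; per the submitters' processing notes they come from RMA, a method of background correction, quantile normalization and summarisation. Software, version and genome build are not given in the sources used here. Intensities were log2 transformed. The platform annotation gives 1 symbol to 19158 probe sets, several to 1388, and does not list 11775; the first kind was kept, and for each of 18404 genes the probe set of highest mean over the 6 arrays was used, without a filter on low values. Groups were compared with limma 3.58.1 (lmFit, eBayes, no covariate) in R 4.3.3, with Benjamini-Hochberg adjustment over all genes and a threshold of 0.05 (0.11 was the median SE of the log2 fold changes). The fit was also run on simulated data with independent normal noise and no shift shared by the genes of an array. That run cannot show how an outlying array affects the results. Ratios used exact permutation tests (scipy 1.17.1). Promoters are RefSeq's (GRCh38.p14). No batch is given in the labels. Members and lists were chosen with earlier results of these data known. Every member is accounted for, called genes have all array values, and neighbouring genes were named where they passed. MPC2, LDHA, LDHB, SDHA, SDHC and SDHD were added after their values were seen. The samples share replicate numbers, but the deviations of same-numbered samples from their group means correlated at 0.12, -0.06 and -0.18, so the numbers were not taken as pairs. Other settings tried were each array left out, the replicate number as a block, median centring, cyclic loess, signal filters, other probe set choices, trended robust variance, array weights, a threshold of 0.01 and treat against a fold of 1.2.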

Additional observations from a re-analysis of the deposited data

How the results depend on the processing

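PDK1, PDK2, PDK3, IDH2 and IDH3A kept their direction and their call under all 15 alternatives for single genes. With the replicate number as a block, 3 members were higher and 5 lower; DLAT lost its call (adjusted p = 0.0558), and among neighbouring genes 7 were higher and 0 lower. With 1 array left out, members called higher numbered 1 to 3, members lower 4 to 5, neighbouring genes higher 4 to 7 and lower 0 to 1, all genes higher 997 to 1935 and lower 1048 to 1959. At an adjusted p under 0.01, 1 member was higher, 0 neighbouring genes were lower, and 870 of all genes were higher and 902 lower. With treat against a fold of 1.2, 1 member was higher, 3 neighbouring genes were higher and 0 lower, and 503 of all genes were higher and 599 lower. Neighbouring genes called lower were 0 with median centring, 4 with cyclic loess, 1 with the probe set of lowest mean and 4 with array weights; the cause was not tested. Median centring moved the median of all genes to 0.04, and gave 2170 genes higher and 1321 lower; members were 4 and 5 as before. Signs turned only in members that passed under no alternative. Cyclic loess gave log2 fold changes of -0.0096 for PDHA1, -0.0025 for IDH3B, -0.024 for OGDH, -0.094 for SUCLA2, -0.031 for SUCLG1 and -0.047 for GOT2. Median centring gave 0.028 for ACO1 and 0.033 for DLST. Array weights gave -0.028 for PDHB, 0.025 for DLST, -0.039 for SUCLA2, -0.070 for SUCLG1 and -0.052 for PC. With 1 array left out, the ranges were -0.060 to 0.21 for PDHB, -0.026 to 0.28 for PDHX, -0.076 to 0.030 for ACO1, -0.039 to 0.12 for IDH3B, -0.00091 to 0.096 for OGDH, -0.054 to 0.022 for DLST, -0.082 to 0.065 for SUCLA2, -0.10 to 0.16 for SUCLG1, -0.11 to 0.084 for PC and -0.0065 to 0.12 for GOT2. No detection calls were used, so that PDK4, PC and ADHFE1 cannot be told from background.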
